A study of Mus musculus with 6 samples.

Results

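The 10 circadian clock genes Arntl, Clock, Npas2, Per1, Per2, Per3, Cry1, Dbp, Nr1d1 and Nr1d2 were followed in choroid ECs of developing and young adult mice. They were picked by symbol, and each of the 10 was found among the 22026 gene symbols of the deposited files. RNA was sequenced from choroid ECs of 129/B6 mice at postnatal day 5 (P5) and day 30 (P30), in 3 independent isolations for each age that pooled 7 animals apiece. No agent or gene modification separates the ages, but P5 pups were anaesthetized by hypothermia before the labelling antibody was given, whereas P30 mice, male and female, were under an anaesthesia that is not specified for this step. ECs were sorted from digested RPE/choroid by an antibody to VE-Cadherin injected into the living animal. A value is therefore the mean of a pool, and neither a single animal nor the hour of the day is resolved. The hour of collection and the light cycle are not given in the sources used here, so age and time of day cannot be told apart for these genes.

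The circadian clock is a loop of transcription that most cells run with a period of about a day. In its positive limb, BMAL1 (the product of Arntl) pairs with CLOCK or with its relative NPAS2 and activates genes through E-boxes. In its negative limb, PER and CRY proteins accumulate, enter the nucleus and repress that pair. REV-ERBα and REV-ERBβ (Nr1d1 and Nr1d2) close a second loop by repressing Arntl, Npas2 and Cry1 through ROR response elements, and DBP carries the rhythm to genes with D-boxes. ECs hold such a clock, and vascular tone and clotting are known to vary with the time of day. Because the levels of most of these transcripts swing over the day, a single collection per pool gives a snapshot and not a rhythm.

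The promoters of Per1, Cry1, Nr1d1 and Per3 are shown because they carry the letters through which the loop is known to act. These letters lie within 250 bases of a RefSeq start, which for Per1 is a start inside the annotated gene. The 4 are also shown because Per1 rose, Cry1 fell, Nr1d1 rose and Per3 overlapped between ages. Sequences are those of RefSeq (table of build GRCm38.p6), each matched exactly and once to the mm9 genome, whose coordinates are given. They are written 5′ to 3′ on the strand of the gene up to the base before its start, and the capitals mark the motif letters.
Per1 (chr11:68912201-68912450, plus strand): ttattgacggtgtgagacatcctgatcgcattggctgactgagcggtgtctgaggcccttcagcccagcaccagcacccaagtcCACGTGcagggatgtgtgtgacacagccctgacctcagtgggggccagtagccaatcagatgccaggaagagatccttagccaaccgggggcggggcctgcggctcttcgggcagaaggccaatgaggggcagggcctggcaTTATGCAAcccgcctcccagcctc
Cry1 (chr10:84647800-84648049, minus strand): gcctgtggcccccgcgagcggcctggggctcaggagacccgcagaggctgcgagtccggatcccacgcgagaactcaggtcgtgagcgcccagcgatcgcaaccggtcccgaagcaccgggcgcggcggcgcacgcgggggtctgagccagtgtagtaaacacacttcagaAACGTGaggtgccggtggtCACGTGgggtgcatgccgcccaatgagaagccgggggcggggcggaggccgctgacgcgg
Nr1d1 (chr11:98636692-98636941, minus strand): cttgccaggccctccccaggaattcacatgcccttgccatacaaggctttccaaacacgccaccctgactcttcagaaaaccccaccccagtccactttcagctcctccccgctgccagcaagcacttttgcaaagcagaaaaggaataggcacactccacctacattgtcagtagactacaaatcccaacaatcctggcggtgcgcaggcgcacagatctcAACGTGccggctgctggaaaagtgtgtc
Per3 (chr4:150418775-150419024, minus strand): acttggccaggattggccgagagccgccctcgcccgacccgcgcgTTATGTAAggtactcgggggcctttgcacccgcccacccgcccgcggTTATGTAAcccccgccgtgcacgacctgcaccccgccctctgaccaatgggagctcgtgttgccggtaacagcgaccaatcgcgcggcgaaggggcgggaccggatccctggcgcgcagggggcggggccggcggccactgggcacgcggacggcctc

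Motifs were searched on both strands in windows from 250 bases before to 50 bases after each start, as the E-box CACGTG, the E′-box CACGTT, the D-box TTATGTAA, TTACGTAA or TTATGCAA, and the core of the ROR response element TAGGTCA or TGGGTCA. Of the 10 genes, 9 had a window, and Per2 had none. A gene was counted when any of its windows held the letters, and Arntl, Clock and Per1 had more than 1 window. The percentages below are of single windows, so they are not on the same footing as the gene counts. The E-box stood in the windows of Per1 and Cry1 (2 of 9 genes), against 7.15% of the 32851 windows of the table. In Per1 it began 166 bases before a RefSeq start, and in Cry1 60 bases before. That start of Per1 lies inside the gene as annotated, which begins at 68908719. The other window of Per1 held none of the letters searched. The E′-box stood, read on the opposite strand, in Cry1, 79 bases before the start, and in Nr1d1, 28 bases before, against 4.68% of windows. D-box letters stood in Per1, 24 bases before the same inner start, and at 205 and 158 bases before the start of Per3, against 1.78% of windows. Arntl held the ROR core just after the more downstream of its RefSeq starts, in the 5′ UTR (6.45% of windows hold it).
Arntl (chr7:120351045-120351071, plus strand): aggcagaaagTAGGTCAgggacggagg
None of these letters was found in the windows of Clock, Npas2, Dbp and Nr1d2, and no matches overlapped each other in the 9 genes. Per1, which rose with age, and Cry1, which fell, thus both held the E-box letters, though in Per1 not in every window.

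Expression is given as FPKM, fragments scaled by transcript length and by library size, so that genes can be set beside each other. FPKM summed to between 1432700 and 1734639 per isolation and 33.4% to 37.3% of gene symbols were listed at 0. Reads per isolation are unknown, and no counting error is given. Markers of ECs were high in every isolation, with a summed FPKM of 21588 to 22877 at P5 and 30262 to 36812 at P30 over a list of 10 genes. The EC markers did not move together, since Plvap rose from a mean of 4692 to 11590, Cdh5, which encodes the sorted antigen VE-Cadherin, was lower in every P30 isolation (mean 2971 and 1885, under 2-fold) and Pecam1 overlapped between ages. Some markers of RPE and mural cells were higher at P30, and unevenly so. The sum over 8 RPE genes, led by Ttr and Rgr, was 65.5 to 145 at P5 and 3831, 2127 and 498 in P30 replicates 1, 2 and 3. Over 7 pericyte genes, led by Rgs5 and Pdgfrb, it was 468 to 1712 at P5 and 1841, 6228 and 3819 at P30. These P30 isolations therefore stand apart from each other. The limma fold changes and calls of the clock genes were recalculated without each of them. The orders, differences within isolations, overlaps, medians and correlations were not.

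Of the 10 clock genes, 4 were higher at P30, 1 was lower and 5 did not pass the test. The 4 that rose were Per1, Dbp, Nr1d1 and Nr1d2, and the 1 that fell was Cry1. The test was limma on log2(FPKM + 1) over the 12481 genes whose mean FPKM reached 5 at either age, all 10 clock genes among them. A gene was called at a Benjamini-Hochberg adjusted p under 0.01 with at least a 2-fold difference in mean FPKM + 1. Over all genes tested, 5.89% were called higher and 5.82% lower at P30, 11.7% in either direction. Under the replicate block, 4 clock genes were again higher and 1 was lower, against 4.69% and 4.20% of all genes, 8.89% in either direction. Every P30 isolation lay above every P5 isolation for 5 of the clock genes and below for 1, against 22.0% and 33.0% of all genes tested. The log2 fold changes of the 10 genes had a median of 0.80, against -0.10 for all genes tested, and without regard to sign their median was 1.36, against 0.45. In bulk RNA, fewer cells of a type and less RNA per cell cannot be told apart.

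**Figure D1:**
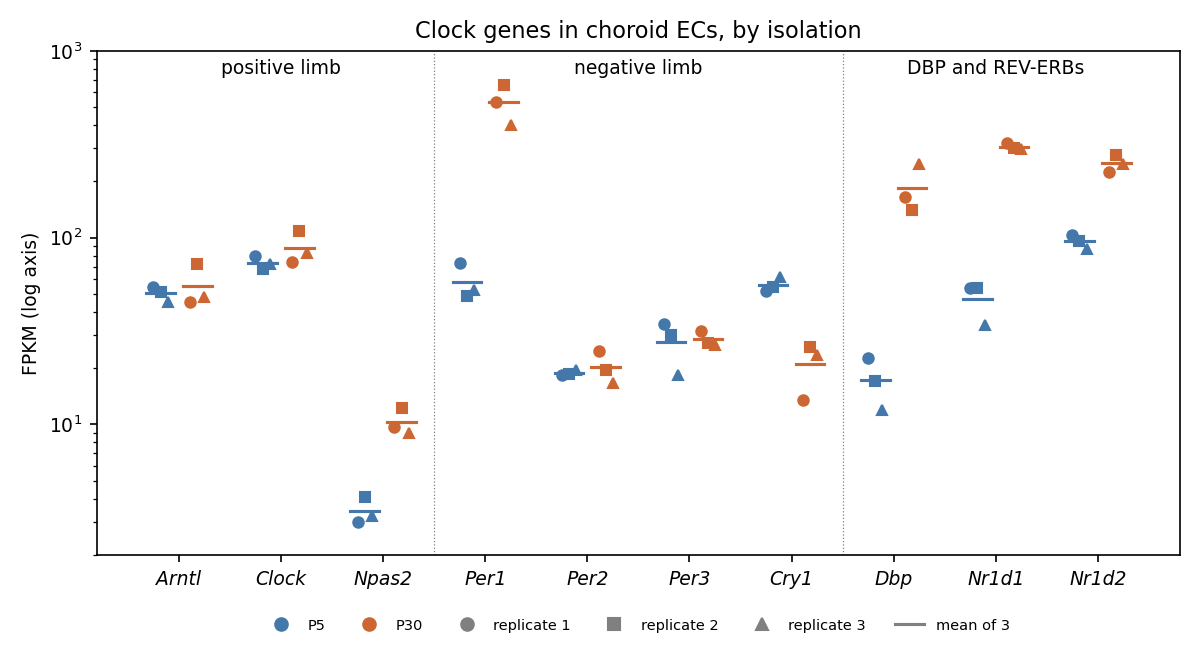
FPKM of the 10 clock genes on a log axis in the 3 P5 (blue) and 3 P30 (orange) isolations, with symbols for replicates and a line for each mean of 3. Per1, Dbp, Nr1d1 and Nr1d2 lie higher at P30 without overlap, as does Npas2, which was not called, Cry1 lies lower, and Arntl, Clock, Per2 and Per3 overlap between ages.

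In the positive limb, 0 of 3 genes passed the test in limma, and 1, Npas2, had an unadjusted p under 0.05. The share of all genes tested under that unadjusted limit was not counted. Arntl (chromosome 7, 120350979 to 120457636 of mm9), whose product BMAL1 is the partner that the loop cannot do without, had an FPKM of 54.7, 51.2 and 45.4 at P5, and of 45.4, 71.9 and 47.8 at P30, given here and for later genes in the order of replicates 1, 2 and 3. The ages overlapped, and P30 replicate 2 was the only isolation above the P5 range. The log2 fold change of Arntl was 0.10 (95% interval -0.36 to 0.55, adjusted p = 0.713 from limma), and without P30 replicate 2 it was -0.11. Clock (chromosome 5, 76639992 to 76733817), which encodes the other subunit, had 80.1, 67.7 and 72.4 at P5 and 73.6, 108.9 and 82.3 at P30. Its ages overlapped as well, with P30 replicate 2 again the highest (log2 fold change 0.25, 95% interval -0.14 to 0.63, adjusted p = 0.264 from limma).

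Npas2 (chromosome 1, 39250576 to 39420079), a relative of Clock that can take its place beside BMAL1, was the lowest of the 10 genes at both ages. Its FPKM was 3.01, 4.11 and 3.24 at P5 and 9.67, 12.3 and 9.0 at P30, so that every P30 isolation lay above every P5 isolation. The P30 mean of 10.3 ± 1.73 (SD, n = 3) was 2.99 times the P5 mean of 3.45 ± 0.580 (SD, n = 3). The log2 fold change of FPKM + 1, which understates the change of so low a gene, was 1.34 (SE 0.31, adjusted p = 0.0129 from limma) and missed the limit of 0.01. It passed without the variance trend (adjusted p = 0.00312) and with median-of-ratios size factors (adjusted p = 0.00923), and over the alternatives that kept all isolations the adjusted p ran from 0.00312 to 0.0403 in limma. Within each isolation, log2(FPKM + 1) of Npas2 minus that of Clock was -4.34, -3.75 and -4.11 at P5 and -2.80, -3.05 and -3.06 at P30.

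The negative limb moved in both directions. Per1 (chromosome 11, 68908719 to 68923462), the period gene that is also induced at once by cAMP signalling and glucocorticoids, had an FPKM of 73.3, 48.6 and 52.2 at P5 and of 535, 652 and 401 at P30. The lowest P30 isolation lay far above the highest P5 isolation. The mean rose from 58.0 ± 13.3 (SD, n = 3) to 529 ± 126 (SD, n = 3), 9.12-fold (a log2 change of 3.16 with an SE of 0.22 and an adjusted p of 0.000167 in limma). With each isolation left out in turn, the log2 fold change of Per1 stayed between 3.00 and 3.35.

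Its paralogs showed no such difference. Per2 (chromosome 1, 93312561 to 93355907), which binds CRY and is itself clock-driven, had an FPKM of 18.4, 18.5 and 19.7 at P5 and of 24.7, 19.5 and 16.6 at P30. The P30 isolations lay on both sides of the P5 range, which was itself narrow (log2 fold change 0.08, 95% interval -0.38 to 0.54, adjusted p = 0.767 from limma). Per3 (chromosome 4, 150377761 to 150418774), which adds to the loop without being needed for it, had 34.5, 30.0 and 18.4 at P5 and 31.8, 27.4 and 26.5 at P30. Here the spread was wider at P5, where P5 replicate 3 was low, and the P30 isolations fell inside the P5 range (log2 fold change 0.09, 95% interval -0.48 to 0.66, adjusted p = 0.798 from limma). Both intervals end below a 2-fold rise, which is 1 on this scale. Within each isolation, log2(FPKM + 1) of Per1 exceeded that of Per2 by 1.94, 1.35 and 1.36 at P5 and by 4.38, 5.00 and 4.51 at P30.

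Cry1 (chromosome 10, 84594447 to 84647799), a potent repressor of the BMAL1 pair, had an FPKM of 51.5, 54.4 and 61.4 at P5 and of 13.5, 25.9 and 23.6 at P30. Every P30 isolation lay below every P5 isolation. The mean fell from 55.8 ± 5.09 (SD, n = 3) to 21.0 ± 6.58 (SD, n = 3), a 2.66-fold difference (a log2 change of -1.41 with an SE of 0.25 and an adjusted p of 0.00459 in limma). This call was lost when any P5 isolation was left out, with adjusted p = 0.0180, 0.0237 and 0.0276 in limma without P5 replicate 1, 2 and 3, although the log2 fold change then stayed between -1.47 and -1.34. Over the alternatives that kept all isolations its adjusted p ran from 0.00375 to 0.00975. Cry2, the paralog of Cry1, had 29.7, 29.9 and 29.4 at P5 and 34.4, 50.7 and 34.3 at P30, without overlap but with a log2 fold change of 0.39 that did not pass (95% interval -0.04 to 0.82, adjusted p = 0.132 from limma). The order of the cryptochromes was thus turned, since log2(FPKM + 1) of Cry1 minus that of Cry2 was 0.77, 0.84 and 1.04 at P5 and -1.29, -0.94 and -0.52 at P30.

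Dbp, Nr1d1 and Nr1d2 all rose. Dbp (chromosome 7, 52960458 to 52965525), which encodes a D-box activator and is among the transcripts that swing most over the day, had an FPKM of 22.7, 17.1 and 12.0 at P5 and of 166, 141 and 248 at P30. Its mean rose from 17.2 ± 5.34 (SD, n = 3) to 185 ± 56.1 (SD, n = 3), 10.7-fold and the largest change among the 10 genes (a log2 change of 3.35 with an SE of 0.28 and an adjusted p of 0.000284 in limma). At both ages the isolations differed by close to 2-fold, 1.89 between highest and lowest at P5 and 1.76 at P30, yet the ages were far apart.

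Nr1d1 (chromosome 11, 98629246 to 98636647), which encodes REV-ERBα, had an FPKM of 53.7, 53.9 and 33.9 at P5 and of 322, 299.8 and 298 at P30. It rose 6.5-fold, from 47.2 ± 11.5 (SD, n = 3) to 306.5 ± 13.4 (SD, n = 3), and the P30 isolations lay within 1.08-fold of each other (a log2 change of 2.70 with an SE of 0.18 and an adjusted p of 0.000167 in limma). Nr1d2 (chromosome 14, 19036568 to 19071641), which encodes REV-ERBβ, had 103, 95.8 and 87.4 at P5 and 224, 278 and 248 at P30. It rose 2.62-fold, from 95.4 ± 7.79 (SD, n = 3) to 250.2 ± 27.1 (SD, n = 3) (a log2 change of 1.38 with an SE of 0.12 and an adjusted p of 0.000310 in limma). The smaller rise of Nr1d2 turned the order of the pair, as log2(FPKM + 1) of Nr1d1 minus that of Nr1d2 was -0.93, -0.82 and -1.34 at P5 and 0.52, 0.11 and 0.26 at P30.

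Dbp and Nr1d1 each share exonic bases with a gene on the opposite strand, and the library kit does not mark strand. In the GENCODE annotation of mm9, Nr1d1 shares 263 of its 3124 exonic bases (8.4%) with Thra, a thyroid hormone receptor gene, and Dbp shares 491 of 2945 (16.7%) with Sphk2, a sphingosine kinase gene. Reads from these stretches cannot be assigned by strand. Thra had an FPKM of 164 to 199.8 at P5 and 166.5 to 242 at P30, and Sphk2 had 33.1 to 38.7 at P5 and 37.5 to 46.5 at P30, so that the ranges of each partner overlapped between ages.

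Set in order of mean FPKM, the clock genes were arranged differently at the 2 ages. At P5 the order was Nr1d2, Clock, Per1, Cry1, Arntl, Nr1d1, Per3, Per2, Dbp and Npas2, from 95.4 down to 3.45. Only the steps from Nr1d2 to Clock and from Dbp to Npas2 were free of overlap between isolations, so the 8 genes in between formed a chain of overlapping neighbours. At P30 the order was Per1, Nr1d1, Nr1d2, Dbp, Clock, Arntl, Per3, Cry1, Per2 and Npas2, from 529 down to 10.3. Only Nr1d2 with Dbp and Cry1 with Per2 overlapped there, and Per1, Nr1d1, Nr1d2 and Dbp stood above the positive limb in every isolation.

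Differences to Arntl within the same isolation are unaffected by a scaling of the whole library, apart from the small effect of the added 1. On log2(FPKM + 1), Dbp minus Arntl was -1.23, -1.53 and -1.84 at P5 and 1.84, 0.96 and 2.35 at P30. Dbp was thus below Arntl in each P5 isolation and above it in each P30 isolation. Nr1d1 minus Arntl went from -0.12 ± 0.26 (SD, n = 3) to 2.49 ± 0.39 (SD, n = 3), and Per1 minus Arntl from 0.18 ± 0.24 to 3.24 ± 0.25. Cry1 minus Arntl went from 0.14 ± 0.26 to -1.37 ± 0.35. Per2 and Per3 kept overlapping differences, at -1.37 ± 0.18 and -1.39 ± 0.49 for Per2 and at -0.89 ± 0.32 and -0.90 ± 0.43 for Per3.

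**Figure D2:**
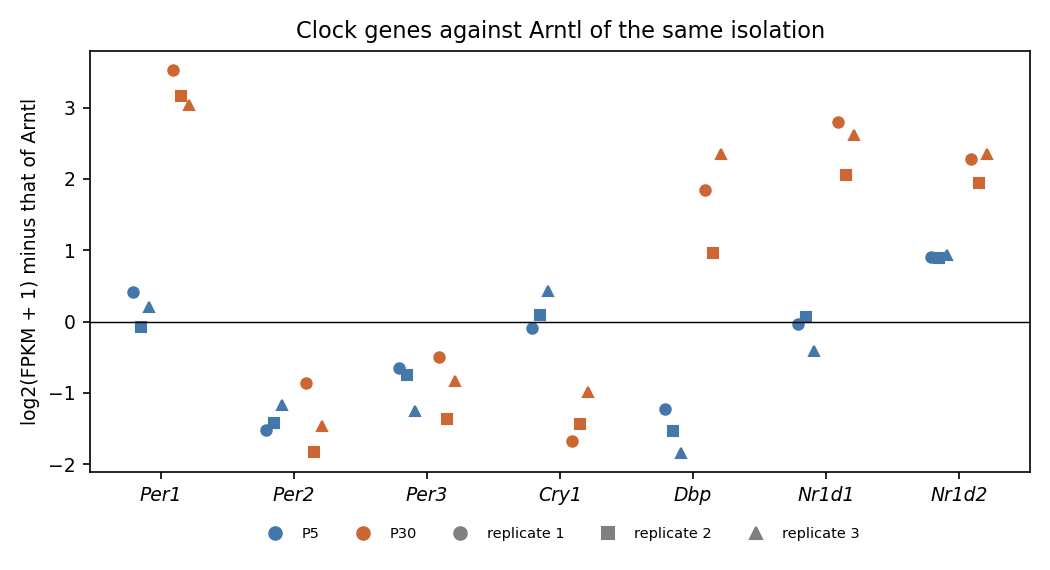
Difference in log2(FPKM + 1) between each of 7 clock genes and Arntl of the same isolation, at P5 (blue) and P30 (orange), 1 symbol per isolation. Per1, Dbp, Nr1d1 and Nr1d2 lie higher at P30 in each isolation, Cry1 lies lower, and Per2 and Per3 overlap.

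Of 29 other genes of the clock pathway, 25 passed the minimum FPKM and were tested, of which 6 were higher and 1 was lower at P30, against 5.89% and 5.82% of all genes tested, with a median log2 fold change of 0.60. Arntl2, Rorb and Fbxl21 were among those below the minimum. Among other factors of the loop, Bhlhe40 and Bhlhe41, which encode the E-box repressors DEC1 and DEC2, both rose. Bhlhe40 had an FPKM of 296, 171 and 210.3 at P5 and of 1351, 1478 and 813 at P30 (a log2 change of 2.41 with an SE of 0.27 and an adjusted p of 0.000795 in limma). Bhlhe41 was far lower, 3.21 to 3.89 at P5 and 14.9, 12.3 and 28.8 at P30 (a log2 change of 2.05 with an SE of 0.36 and an adjusted p of 0.00471 in limma), a call lost without any P5 isolation and with the block. Ciart, listed under its older symbol Gm129 and known as a repressor of the BMAL1 pair, rose from 26.0 ± 4.72 to 53.1 ± 3.24 (SD, n = 3), 2.04-fold and barely past the limit (a log2 change of 1.02 with an SE of 0.17 and an adjusted p of 0.00400 in limma), a call lost in 5 of the 6 fits that left out 1 isolation. The promoter window of Ciart held 3 E-boxes, 116, 58 and 44 bases before the start, and that of Bhlhe41 held the letters 153 bases before. Of the 22 other pathway genes with a window, 5 held the E-box, against 7.15% of single windows. Tef, which was not called, is among them, and Hlf, which was called, is not. Rora, whose product activates through the element that REV-ERBs repress, had 9.85, 6.81 and 5.23 at P5 and 5.39, 27.7 and 15.5 at P30, which overlap (log2 fold change 0.84, 95% interval -0.43 to 2.11, adjusted p = 0.251 from limma).

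DBP shares the D-box with its relatives TEF and HLF and with the repressor NFIL3. Hlf rose, from 27.2, 21.3 and 12.9 at P5 to 43.0, 90.6 and 72.9 at P30 (a log2 change of 1.7 with an SE of 0.34 and an adjusted p of 0.00817 in limma), again a call lost in 5 of the 6 fits that left out 1 isolation. Tef had a mean of 88.6 ± 10.5 (SD, n = 3) at P5 and reached 136 ± 9.69 (SD, n = 3) later, each P30 isolation above each P5 isolation. Its adjusted p of 0.00819 from limma passed but the 1.53-fold difference did not reach 2-fold. Nfil3 had 28.9, 20.5 and 21.3 at P5 and 48.1, 56.9 and 16.5 at P30, so that P30 replicate 3 was below the whole P5 range (log2 fold change 0.60, 95% interval -0.42 to 1.61, adjusted p = 0.303 from limma).

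Of 11 tested kinases, ubiquitin ligases and cofactors that set the stability and activity of PER, CRY and the REV-ERBs, 0 were called by limma. Of the same 11, 6 had an unadjusted p under 0.05. The share of all genes tested under that limit was not counted, but it is at least the 11.7% that were called. Of 6 genes listed as common rhythmic outputs, 2 were higher and 1 was lower, against 5.89% and 5.82% of all genes tested. Klf9, a Krüppel-like factor, rose from 48.6, 41.1 and 39.6 at P5 to 397, 679 and 469 at P30 (a log2 change of 3.52 with an SE of 0.20 and an adjusted p of 9.2e-05 in limma). Tsc22d3, which encodes the glucocorticoid-induced leucine zipper GILZ, rose from 271, 222 and 195 to 918, 880.3 and 981 (a log2 change of 2.02 with an SE of 0.13 and an adjusted p of 0.000149 in limma). Wee1, a kinase that holds back mitosis, fell from 50.9, 68.3 and 77.5 to 28.3, 26.3 and 27.1 (a log2 change of -1.22 with an SE of 0.18 and an adjusted p of 0.00218 in limma), a call lost without P5 replicate 2 or 3.

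**Figure D3:**
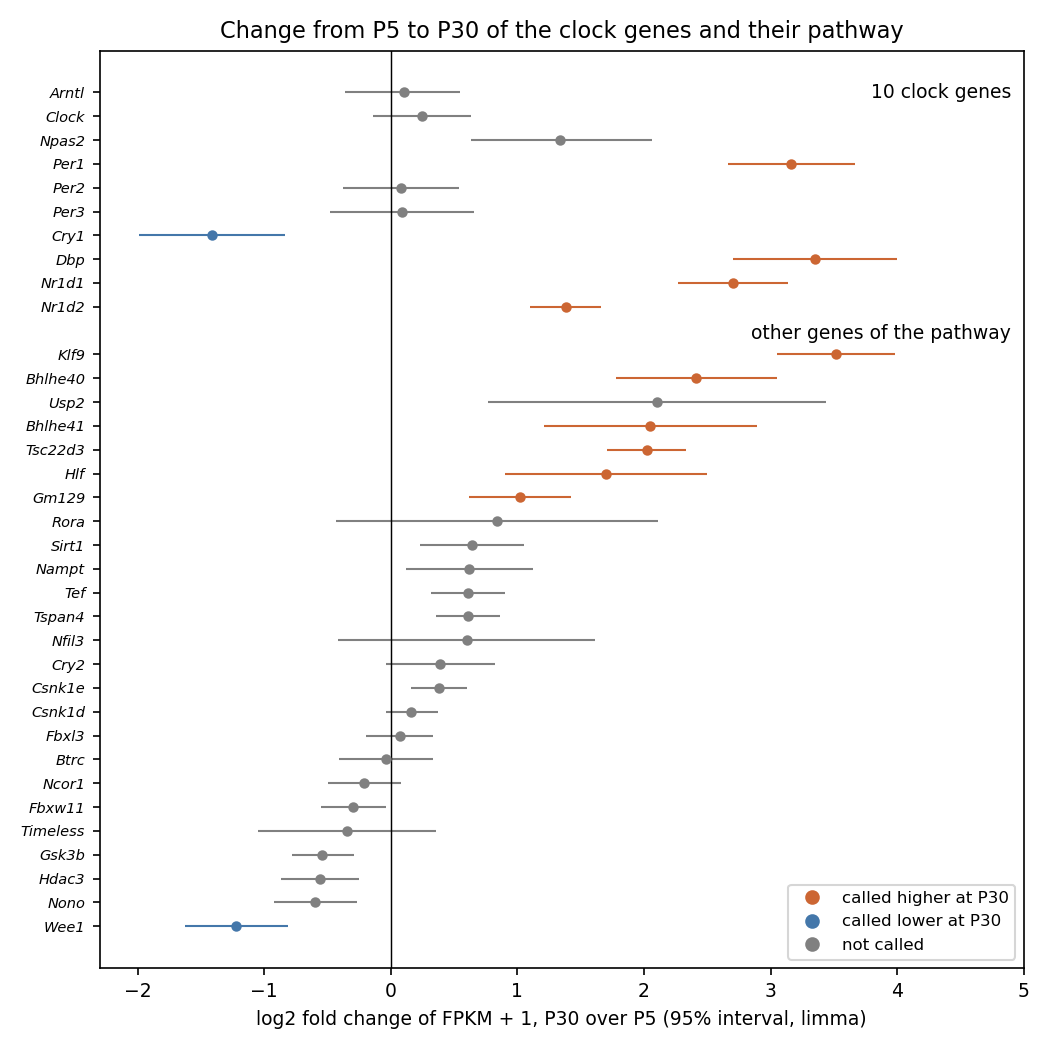
Log2 fold change of FPKM + 1, P30 over P5, with its 95% interval from limma, for the 10 clock genes (top) and the 25 other tested genes of the pathway (below, ordered by value). Orange marks the genes called higher at P30 (4 clock genes and 6 others), blue those called lower (Cry1 and Wee1) and grey those not called.

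Genes that respond to acute signals were higher at P30 as well, and some of them are known to share inducers with Per1. All 10 immediate early genes of the list were called higher, against 5.89% of all genes tested. Fos had an FPKM of 2905, 1796 and 1709 at P5 and of 9471, 13405 and 7793 at P30 (a log2 change of 2.26 with an SE of 0.26 and an adjusted p of 0.000926 in limma). Egr1 had 2550.0, 1694 and 1600 at P5 and 7585, 10804 and 8413 at P30 (a log2 change of 2.21 with an SE of 0.21 and an adjusted p of 0.000452 in limma). The summed FPKM of the list was 8343 to 13178 at P5 and 45676 to 58317 at P30. Of 9 glucocorticoid-responsive genes, Klf9 and Tsc22d3 among them, 7 were called higher and 0 lower, against 5.89% and 5.82% of all genes tested. The sum over the 9 genes was 2211 to 2761 at P5 and 10412 to 11504 at P30. Sgk1, a kinase of ion transport, had 2183, 1758 and 2002 at P5 and 6417, 6058 and 7341 at P30. Mt1, a metallothionein, had 65.2, 30.5 and 26.8 at P5 and 1425, 1745 and 625 at P30. The part of these signals in the rise of Per1, Dbp, Nr1d1 and Nr1d2 was not tested.

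Some markers of other cells differed with age beside the clock genes. The counts below stand against 5.89% of all genes tested called higher and 5.82% called lower. A count of 1 is not read as a change of its list. Of the RPE genes, 5 of 7 tested were higher at P30. Rpe65 was listed at 0 in 2 of the 3 P5 isolations. The photoreceptor genes Gnat1 and Rcvrn were higher at P30, and Rcvrn was listed at 0 in every P5 isolation. Of pericyte genes 1 of 7 was higher (Higd1b). Of smooth muscle genes 2 of 5 were higher (Myh11 and Lmod1), whereas Acta2 and Tagln, the most abundant at P30, were not called, and the sum was 85.4 to 175 at P5 and 311 to 1082 at P30. Of fibroblast genes 1 of 6 was higher (Dcn), with a sum of 422 to 851 and 1443 to 3244. Of pigment cell genes, the most abundant of which were Dct and Pmel at P30, 0 of 6 were called by limma (sum 102 to 468 and 132 to 1270). Of these 6, 1 had an unadjusted p under 0.05, a limit passed by at least the 11.7% of all genes that were called. Of 6 haematopoietic genes, 1 was lower (Ptprc, mean 27.1 and 7.82). Csf1r, with means of 226 and 90.3, was not called. Its P30 isolations lay below the P5 range, but replicate 1 only just, at 169.13 against 169.4 in P5 replicate 3. The haematopoietic sum, to which Lyz2 and Cd68 gave most at P30, was 498 to 754 and 313 to 793.

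Across the P30 isolations, the clock genes that changed varied less than the sums of RPE, pigment cell and pericyte genes. The RPE sum differed 7.69-fold between the highest and the lowest P30 isolation, the pigment cell sum 9.63-fold and the pericyte sum 3.38-fold, against 1.08-fold for Nr1d1, 1.24-fold for Nr1d2, 1.63-fold for Per1, 1.76-fold for Dbp and 1.92-fold for Cry1. The smooth muscle, haematopoietic and fibroblast sums differed 3.48-fold, 2.53-fold and 2.25-fold. The immediate early, EC and glucocorticoid-responsive sums differed less than Per1, Dbp and Cry1 did, by 1.28-fold, 1.22-fold and 1.1-fold. Sgk1 gave most of the glucocorticoid-responsive sum and differed 1.21-fold. Single genes of that list differed unequally, Tsc22d3 1.11-fold, Mt1 2.79-fold and some others more. Dbp was highest in P30 replicate 3, where the RPE and pigment cell sums were lowest. The part of other cells in the changes of the clock genes was not tested. Without any single P30 isolation, the log2 fold change stayed between 3.12 and 3.52 for Dbp, 2.67 and 2.72 for Nr1d1, 1.30 and 1.46 for Nr1d2 and -1.58 and -1.14 for Cry1. Arntl, Clock, Cry1 and Nr1d2 were highest in P30 replicate 2 and lowest in P30 replicate 1, the order of the pericyte, fibroblast and immediate early sums. Per2, Per3 and Nr1d1 followed the order of the RPE sum, Nr1d1 over a range of only 1.08-fold. Per1 and Npas2 followed the order of the smooth muscle and glucocorticoid-responsive sums, and Dbp followed that of no list. Few orders of 3 isolations are possible, and the share of all genes in each order was not counted. A link of these genes to the lists was not tested.

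**Figure D4:**
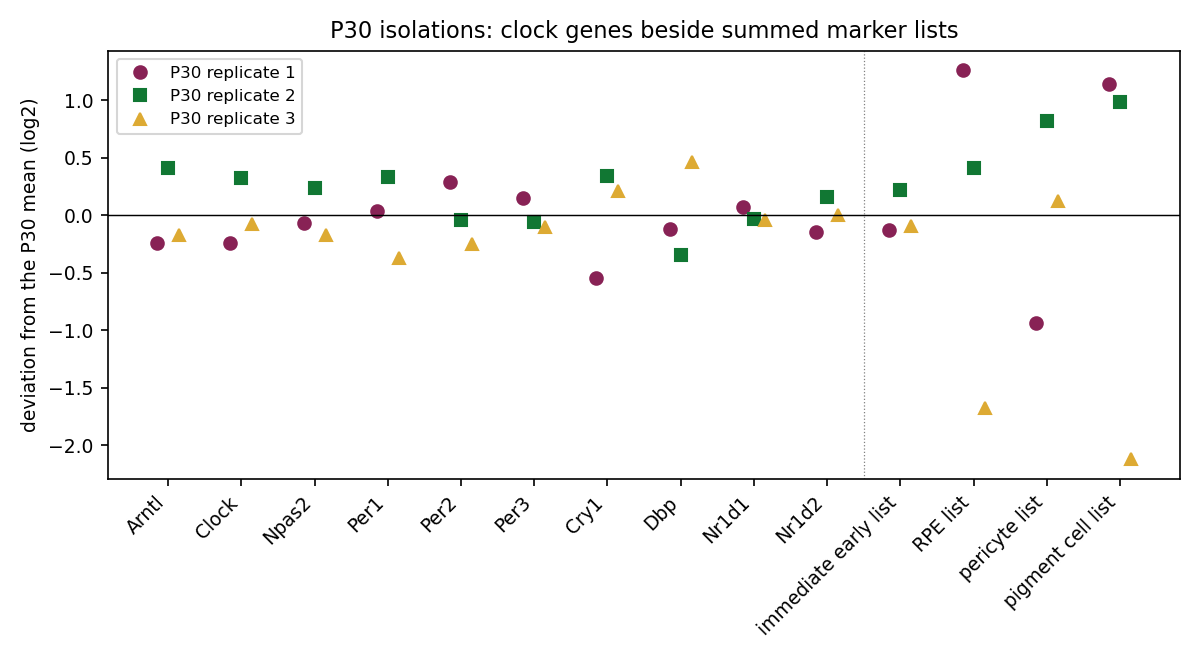
Deviation of each P30 isolation from the mean of the 3 P30 isolations, on log2(FPKM + 1), for the 10 clock genes and, right of the dotted line, for the summed FPKM of 4 lists. The clock genes stay within 0.55 of their mean, while the RPE list runs from -1.68 to 1.26 and the pigment cell list from -2.12 to 1.14.

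Among the genes whose log2(FPKM + 1) went most closely with Arntl over the 6 isolations were Elmo2, Abcd2, Osbpl3 and Pdlim3, with Pearson r between 0.9761 and 0.9867. Like Arntl they were highest in P30 replicate 2, and Elmo2 had an FPKM of 121, 116 and 107 at P5 and of 101, 168 and 104 at P30. Those closest to Dbp were Ccrl2, Cds2, Grasp, Aldh2 and Chpf, with r between 0.9982 and 0.9996. Ccrl2 had 47.6, 38.5 and 29.4 at P5 and 205, 169 and 269.7 at P30, and thus followed Dbp within each age too. These r are descriptions over 6 isolations that share 2 ages, picked from all genes tested.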

How the data were processed

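RNAseq of sorted choroid ECs was deposited as 1 table per isolation, for 3 isolations at each of P5 and P30. After base calling (CASAVA 1.8.2) and quality control (FastQC), the authors used TopHat on the mm9 genome, and Cufflinks gave the deposited FPKM (2 decimals), corrected for GC and scaled to the upper quartile. The annotation and the other versions are not given in the sources used here. Upper quartile scaling makes FPKM relative, and depth is unknown. The authors' own DESeq2 test used read counts, which were not used here.

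Groups and replicate numbers came from the labels. From the FPKM, log2(FPKM + 1) was tested between ages with limma 3.58.1 (R 4.3.3; lmFit, eBayes with trend, no block) over the genes whose mean FPKM reached 5 at either age, with p adjusted (Benjamini-Hochberg) over all of them. Calls needed an adjusted p under 0.01 and 2-fold in mean FPKM + 1. The fit was tested on simulated data. Lists covered the clock pathway, immediate early, glucocorticoid-responsive and cold-inducible genes, and markers of ECs, RPE, pericytes, smooth muscle, fibroblasts, pigment cells and haematopoietic cells. Members and lists were chosen with earlier results of these data known. Named genes were the 10 clock genes, other pathway genes past the limits and 8 fixed ones, the leading genes of each list, and the 5 closest in pattern to Arntl and to Dbp. Some markers, such as Rpe65, Rcvrn, Higd1b, Myh11, Lmod1, Ptprc, Csf1r, Cdh5 and Pecam1, lie outside these rules and were named with their values known. A few genes that these rules name, and the sum and counts of the photoreceptor markers, are not reported here. Alternatives changed the pseudocount, the minimum, the trend, the scaling, the fold and the block, or left out 1 isolation. Positions are from GENCODE vM1 (mm9). Python 3.11.15, pandas 2.3.3 and numpy 2.4.6 were used otherwise.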

Additional observations from a re-analysis of the deposited data

How the results depend on the processing

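With 2 pseudocounts, 2 minima, no trend, quantile normalization, median-of-ratios size factors, the coefficient as fold and the replicate block, the clock genes called higher numbered 4 or, with Npas2, 5, and Cry1 stayed called lower. Leaving out each isolation gave 4 to 4 clock genes higher and 0 to 1 lower (0 without any P5 isolation), 3 to 6 other pathway genes higher and 0 to 1 lower, and, over all genes, 396 to 849 higher and 291 to 754 lower (limma). The sign turned, with no call, for Arntl without P30 replicate 2 (log2 fold change -0.11, up to 0.22 without another isolation), Per2 without P30 replicate 1 (-0.06, up to 0.21) and Per3 without P5 replicate 3 (-0.17, up to 0.26). Bhlhe41 lost its call without any P5 isolation (adjusted p 0.0196 to 0.0239) and with the block (0.0105), Wee1 without P5 replicate 2 (0.0169) and 3 (0.0131), and Gm129 and Hlf in 5 of the 6 fits with 1 isolation left out. With a pseudocount of 5, Gm129 had a log2 fold change of 0.92, and Hlf had an adjusted p of 0.0124 with no minimum and 0.0174 without the trend.

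With the replicate number as a block, 585 genes were higher and 524 lower at P30 over all genes, and of the clock genes 4 were higher and 1 lower, of the other pathway genes 4 and 1 (Hlf, adjusted p = 0.0172 from limma, and Bhlhe41 no longer passed). After the age mean was removed, P5 and P30 isolations with the same number correlated at -0.062, -0.091 and -0.031. These values gave no sign that the numbers pair the isolations. They cannot exclude a pairing hidden by larger differences between isolations. With 3 isolations per age that may differ in collection time, p-values measure the spread between these isolations only.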

Other observations

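The cold-inducible RNA-binding proteins CIRBP and RBM3 are known to act on clock transcripts, and P5 pups, unlike P30 mice, had been anaesthetized by hypothermia. Cirbp had an FPKM of 316, 356 and 279 at P5 and of 294, 463 and 312 at P30, which overlap (log2 fold change 0.14, 95% interval -0.29 to 0.58, adjusted p = 0.567 from limma). Rbm3 had 315, 373 and 392 at P5 and 210.3, 227 and 194 at P30, with every P30 isolation below every P5 isolation. Its log2 fold change of -0.77 (SE 0.12, adjusted p = 0.00273 from limma) did not reach 2-fold. The part of anaesthesia in these values was not tested.

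The kinases Gsk3b, Csnk1e and Csnk1d did not overlap between ages but differed by less than 2-fold. Gsk3b, a kinase that marks several clock proteins, had 159, 152 and 158 at P5 and 97.5, 117 and 108 at P30 (a log2 change of -0.54 with an SE of 0.10 and an adjusted p of 0.00706 in limma, 1.45-fold). Csnk1e, which encodes the casein kinase that marks PER proteins for decay, had 185, 165 and 169.8 at P5 and 234, 226 and 216 at P30 (a log2 change of 0.38 with an SE of 0.09 and an adjusted p of 0.0179 in limma). Csnk1d, a relative of Csnk1e, had 332, 333 and 324 at P5 and 390.4, 368 and 349.8 at P30 (a log2 change of 0.16 with an SE of 0.09 and an adjusted p of 0.174 in limma). These genes were chosen here after their values had been seen.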
